A study of Canis lupus familiaris with 18 samples.

Results

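Bulk RNASeq of canine high grade oligodendroglioma (HGO), a malignant glial brain tumor, was used to compare tumors with high and low expression of interferon-induced genes. The tumors were prosencephalic HGOs removed at surgery and kept as formalin-fixed, paraffin-embedded tissue. The series holds 18 libraries, namely 11 of French bulldogs, 4 of boxers and 3 of Boston terriers, the last 7 forming the comparison dogs. No experimental treatment or allele is given for any group, and each library is labelled as a different dog.

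The tumors were chosen by their own expression values. The library of French bulldog 6 was left out, and the libraries of French bulldogs 2 and 8, whose names share a case number, were summed as 1 tumor called French bulldog 2+8, which left 16 tumors. The score of a tumor was the mean z-score, over the 16 tumors, of the log2 CPM (counts scaled to the library size) of MX2, ISG15, IFIT3, OAS1 and IFI44, and MX1, the sixth gene of the rule, is not listed by symbol in the counts. The 5 tumors with the highest score are called interferon-high here, and the 5 with the lowest interferon-low. In order of falling score, the interferon-high tumors were French bulldog 11, Boston terrier 7, boxer 3, French bulldog 1 and boxer 4. The interferon-low tumors, in the same order, were French bulldog 4, French bulldog 9, Boston terrier 6, boxer 1 and French bulldog 2+8. Values of single tumors are given in these orders throughout. The other 6 tumors lay between the groups.

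Interferons are secreted signals that cells release after sensing viral or misplaced nucleic acids. Type I interferons bind a receptor that activates the kinases JAK1 and TYK2, and the signal is carried to the nucleus by transcription factors that switch on interferon-stimulated genes. Type II interferon, IFN-gamma, is made mainly by T cells and NK cells and acts on genes of antigen presentation. In brain tumors such genes can be expressed by tumor cells, by microglia and macrophages and by vessel cells, and a bulk library does not separate these sources.

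Each group held both breeds of the comparison dogs and French bulldogs. Of the dogs, 2 French bulldogs and 3 comparison dogs were interferon-high, and 3 French bulldogs and 2 comparison dogs were interferon-low (Fisher's exact test, two-sided, p = 1). Counts assigned to genes summed to between 8212452 and 17924670 per tumor over the 16 tumors, the highest being the summed tumor. A single gene took 18.9% to 33.4% of the counts of a tumor. The oligodendroglial markers OLIG2 and SOX10 were present in all 10 tumors, at 88.2 to 281 CPM for OLIG2 and 154 to 453 CPM for SOX10.

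The score did not divide the tumors into separate classes. French bulldog 11 had a score of 2.67, followed by 0.499 in Boston terrier 7, 0.332 in boxer 3, 0.280 in French bulldog 1 and 0.236 in boxer 4. French bulldog 3, just outside the interferon-high group, had a score of 0.186, so 4 of the 5 interferon-high tumors lay close to the tumors between the groups. At the other end French bulldog 10, just outside the interferon-low group, had a score of -0.233. The interferon-low tumors had scores of -0.267, -0.437, -0.700, -0.712 and -1.94. The gap between the highest tumor and the next was 2.17 and that between the lowest and the next 1.22, against a span of 1.21 over the other 14 tumors. French bulldog 11 and French bulldog 2+8 thus lay far from the rest, and many results are also given without both. The libraries of French bulldogs 2 and 8 taken singly had scores of -2.02 and -1.88, each the lowest of the 16 tumors.

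**Figure D1:**
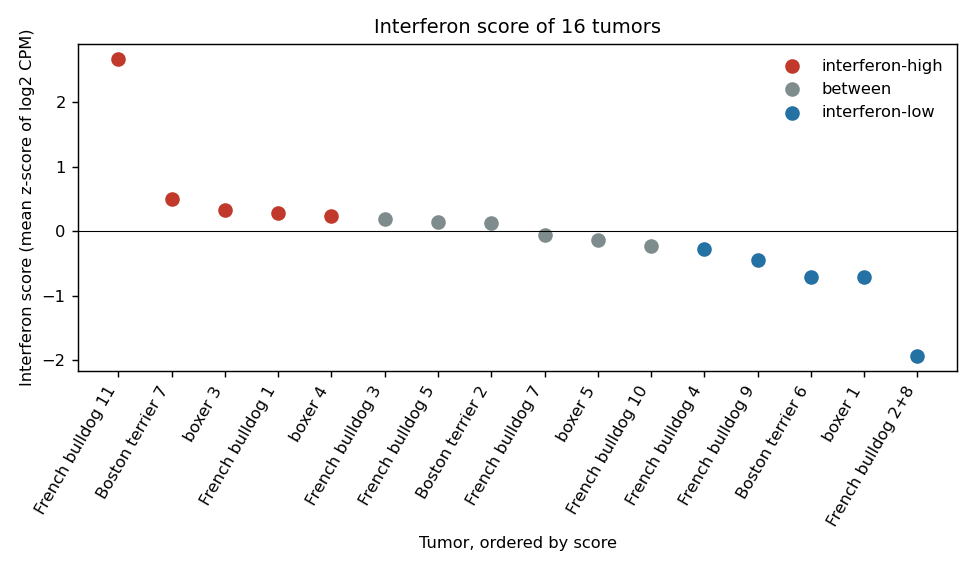
Interferon score (mean z-score of log2 CPM of 5 genes) of each of 16 tumors, ordered by score, with the 5 interferon-high tumors in red, the 5 interferon-low tumors in blue and the 6 between in grey. French bulldog 11 (2.67) and French bulldog 2+8 (-1.94) stand apart from a run of 14 tumors with no wide gap at either threshold.

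The 5 genes that made the score are described here without a test. MX2, a dynamin-like GTPase that restricts viruses, was at 441, 58.5, 62.2, 67.7 and 76.4 CPM in the interferon-high tumors and at 36.5, 48.7, 36.7, 36.4 and 17.0 CPM in the interferon-low tumors. ISG15, a ubiquitin-like protein that is attached to other proteins after interferon, was at 1.2 to 32.7 CPM against 0 to 1.09 CPM. IFI44 ranged from 47.1 to 229 CPM against 5.23 to 41.3 CPM. OAS1, which makes the 2-5A signal that activates RNase L, overlapped between the groups, with 10.7 to 56.6 CPM against 1.64 to 13.5 CPM. IFIT3, a partner of the RNA-binding IFIT complex, ranged from 4.27 to 48.5 CPM against 0.818 to 4.04 CPM. In French bulldog 11 these genes stood 3.76-fold (OAS1) to 31.2-fold (ISG15) above their median over the 16 tumors.

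Outside the score, no gene passed the test. Of 16408 genes tested by edgeR's quasi-likelihood test, 0 (0%) were higher and 0 (0%) were lower in interferon-high tumors at an adjusted p under 0.05, and the smallest adjusted p was 0.103. At an unadjusted p under 0.05, 643 genes (3.92%) were higher and 394 (2.4%) lower. DESeq2's Wald test called 138 of 20461 genes higher (0.674%) and 14 lower (0.0684%), and limma-voom called 0 genes, with 1149 at an unadjusted p under 0.05. Every interferon-high tumor lay above every interferon-low tumor for 199 genes (1.21%), and below for 80 genes (0.488%). The median log2 fold change over all genes tested was -0.071, and 42.6% of the genes had a value above 0. All log2 fold changes in the text are interferon-high minus interferon-low tumors from edgeR, with 5 tumors in each group. The p-values measure the spread between these tumors, and since the same libraries gave the score, genes that vary together with the score genes are not independent evidence of the grouping.

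**Figure D2:**
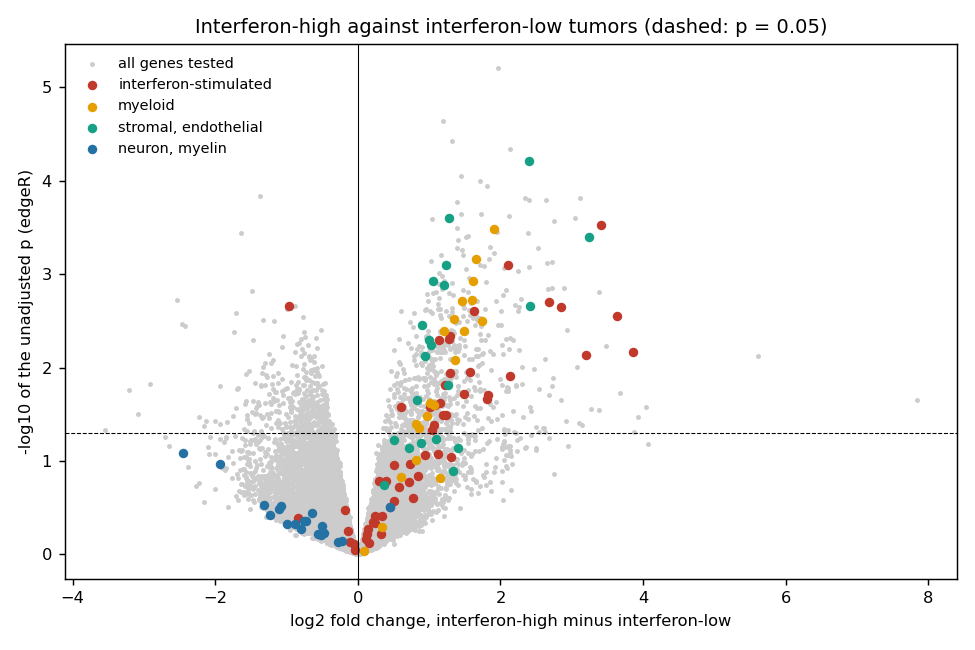
Each point is 1 of 16408 genes, with its log2 fold change (interferon-high minus interferon-low) on the x axis and -log10 of the unadjusted edgeR p on the y axis; interferon-stimulated, myeloid, stromal with endothelial, and neuron with myelin genes are colored and the dashed line marks p = 0.05. Most interferon-stimulated genes lie to the right of 0, the highest colored point is COL3A1, and no gene reached an adjusted p under 0.05.

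The interferon-stimulated genes outside the score mostly had higher levels in interferon-high tumors, but no single one passed the test. Of 86 symbols on the lists, 56 were in the counts and 55 could be tested. The log2 fold change was above 0 for 48 of the 55, with a median of 0.95, and 26 were higher and 1 lower at an unadjusted p under 0.05, where 3.92% of all genes were higher. The smallest adjusted p among them was 0.220. All the interferon-high tumors lay above all the interferon-low tumors for 7 of the 55 genes, and below for 1, against 1.21% and 0.488% of all genes. DESeq2 called 6 of them higher and 0 lower, and these were TRIM22, SAMD9L, BST2, OAS2, DDX60 and LGALS9.

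The antiviral effectors, proteins that block viral entry, replication or release, were represented by 21 tested genes, all with a log2 fold change above 0. At an unadjusted p under 0.05, 9 of the 21 were higher and 0 lower, with a list median of 0.72, where 3.92% of all genes were higher and 42.6% had a value above 0. Without both extreme tumors 5 of the 21 were higher and 17 had a value above 0, with a median of 0.19. Since edgeR called no member of any list, the examples of the lists were chosen after their values were seen, often but not always by smallest p.

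TRIM22, a ubiquitin ligase that restricts viral transcription, was at 25.6, 4.5, 4.60, 10.6 and 9.02 CPM in the interferon-high tumors and at 0.375, 1.24, 1.35, 1.82 and 0.327 CPM in the interferon-low tumors. The groups did not overlap. The lowest interferon-high tumors, Boston terrier 7 and boxer 3, lay above the highest interferon-low tumor, boxer 1. The log2 fold change of TRIM22 was 3.41 ± 0.66 (SE), with an adjusted p of 0.220 by edgeR and 7.12e-05 by DESeq2, and without both extreme tumors it was 2.58.

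SAMD9L, a cytosolic inhibitor of translation, was at 139, 27.8, 35.2, 53.8 and 39.6 CPM against 12.1, 19.9, 9.35, 18 and 9.32 CPM. Its groups did not overlap either, and the log2 fold change was 2.11 ± 0.46 (SE, adjusted p = 0.284 by edgeR) and 1.40 without both extreme tumors. BST2, or tetherin, which holds budding virus particles at the cell surface, was at 116, 22.3, 17.8, 34.8 and 17.6 CPM against 10.5, 4.73, 5.30, 10.5 and 1.69 CPM. French bulldog 11 was highest and French bulldog 2+8 lowest for BST2, and its log2 fold change of 2.67 ± 0.66 (SE, adjusted p = 0.378 by edgeR) was 1.58 without both. OAS2, a relative of OAS1 that also makes 2-5A, was at 80.8, 10.2, 11.1, 17.2 and 9.41 CPM against 4.41, 4.66, 1.85, 5.75 and 1.25 CPM. The OAS2 groups did not overlap, with a log2 fold change of 2.85 ± 0.72 (SE, adjusted p = 0.378 by edgeR) that was 1.75 without French bulldog 11 and 1.53 without both.

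Other antiviral genes owed more to a single tumor. IFIT1, which binds viral RNA lacking a host cap, was at 66.9, 5.34, 3.95, 4.27 and 1.73 CPM against 1.41, 1.16, 0.253, 2.72 and 0.164 CPM. The lowest interferon-high tumor lay below the highest interferon-low tumor for IFIT1, and its log2 fold change of 3.86 ± 1.16 (SE, adjusted p = 0.485 by edgeR) was 1.47 without both extreme tumors. RSAD2, or viperin, which makes a chain-terminating nucleotide, was at 91.2, 9.26, 6.90, 4.19 and 2.98 CPM against 3.37, 1.40, 4.13, 1.11 and 2.40 CPM, with a log2 fold change of 3.20 ± 0.97 (SE, adjusted p = 0.494 by edgeR) that was 1.22 without both. OAS3 was at 133 CPM in French bulldog 11 and at 19.9 to 38.9 CPM in the other interferon-high tumors, inside the interferon-low range of 15.7 to 44.3 CPM. The log2 fold change of OAS3 was 0.84 (adjusted p = 0.849 by edgeR), and it turned to -0.064 without both extreme tumors. EIF2AK2, the RNA-activated kinase PKR, and ADAR, which edits double-stranded RNA, had log2 fold changes of 0.24 and 0.15 with adjusted p-values of 0.908 and 0.929 by edgeR, and -0.0019 and -0.076 without both extreme tumors.

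The other classical interferon-stimulated genes numbered 34 tested, of which 17 were higher and 1 lower at an unadjusted p under 0.05, against 3.92% and 2.4% of all genes, with a list median of 1.03. Without both extreme tumors 5 of the 34 were higher, with a median of 0.44. DDX60, a helicase linked to RNA sensing, was at 94.5, 4.34, 8.46, 30.6 and 8.45 CPM against 0.937, 1.78, 6.57, 0.908 and 1.53 CPM. Boston terrier 6, an interferon-low tumor, lay above Boston terrier 7 for DDX60, and the log2 fold change was 3.63 ± 0.95 (SE, adjusted p = 0.393 by edgeR) and 2.34 without both extreme tumors. LGALS9, a galectin of immune cells, was at 33.9, 9.92, 11.1, 15.4 and 12.0 CPM against 3.09, 8.22, 5.73, 6.26 and 3.22 CPM, without overlap, and its log2 fold change was 1.63 ± 0.42 (SE, adjusted p = 0.378 by edgeR) and 1.06 without both extreme tumors.

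LY6E, a lipid-anchored surface protein usually counted among interferon-stimulated genes, went the other way. It was at 16.5, 40.4, 34.1, 22.6 and 28.3 CPM in the interferon-high tumors and at 51.3, 62.0, 43.4, 63.5 and 58.2 CPM in the interferon-low tumors. Every interferon-high tumor was below every interferon-low tumor, French bulldog 11 was the lowest of the 10, and the log2 fold change was -0.97 ± 0.25 (SE, adjusted p = 0.378 by edgeR). IFI6, a mitochondrial protein, varied from 0.0749 to 4.42 CPM among the interferon-high and from 0.164 to 7.14 CPM among the interferon-low tumors, with a log2 fold change of -0.84 (adjusted p = 0.904 by edgeR).

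French bulldog 11 was the highest of the 16 tumors for 37 of the 55 interferon-stimulated genes, against 12.4% of all genes tested. French bulldog 2+8 was the lowest for 25 of them, against 15.2% of all genes, and both held for 19. In French bulldog 11, 34 of the 55 genes were more than 1 log2 unit above their median over the 16 tumors, and the other interferon-high tumors had 2 to 7 such genes. In French bulldog 2+8, 25 genes were more than 1 log2 unit below their median, against 5 to 11 in the other interferon-low tumors. Without both tumors the median log2 fold change was 0.40, 45 of the 55 genes were above 0 and 10 were higher at an unadjusted p under 0.05. In that comparison of 4 against 4 tumors, 0 of 16528 genes passed edgeR's adjusted p, with 676 at an unadjusted p under 0.05 and a smallest adjusted p of 0.203. Without French bulldog 11 alone the median over the 55 genes was 0.45, and without French bulldog 2+8 alone it was 0.89.

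**Figure D3:**
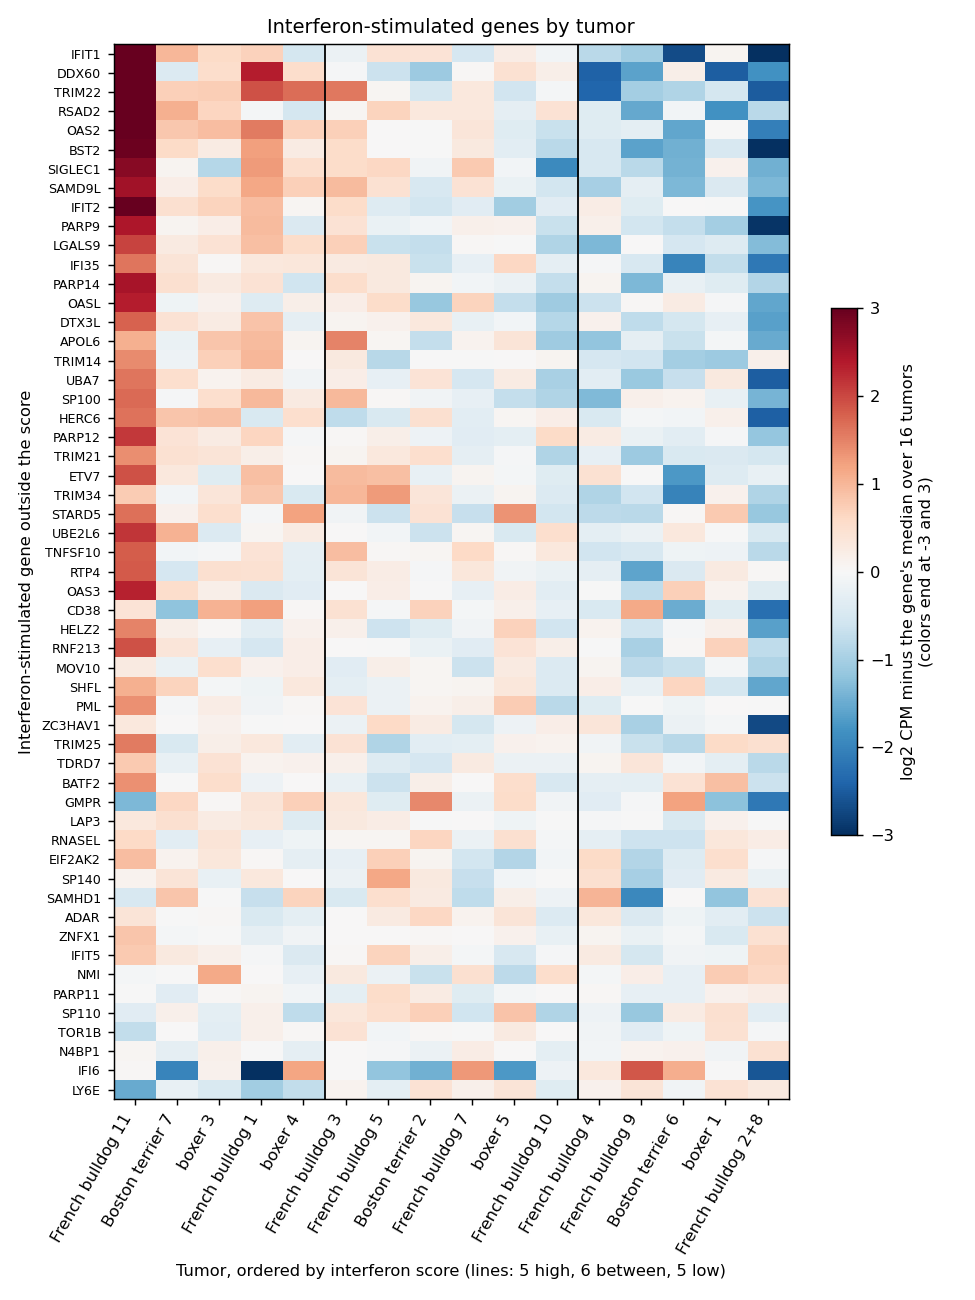
Each row is 1 of 55 interferon-stimulated genes outside the score, ordered by log2 fold change, and each column 1 of 16 tumors ordered by score; colors give log2 CPM minus the gene's median over the 16 tumors, and lines separate the 5 high, 6 between and 5 low tumors. French bulldog 11 is dark red in most rows and French bulldog 2+8 blue in many, and the columns between them are paler; LY6E, in the bottom row, runs the other way.

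The same genes were examined within breed groups. In French bulldogs alone (2 interferon-high, 3 interferon-low) the median log2 fold change of the 55 genes was 1.58 and 49 were above 0. In boxers and Boston terriers alone (3 interferon-high, 2 interferon-low), which hold neither extreme tumor, it was 0.34 and 44 were above 0. With all 16 tumors and the score as a continuous covariate, 25 of the 55 were higher and 0 lower at edgeR's adjusted p under 0.05, against 274 (1.61%) and 69 (0.406%) of 16993 genes. Both extreme tumors have the scores farthest from 0 in that fit.

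Sensors of nucleic acids, which start interferon production and are themselves interferon-induced, included 15 tested genes, and 7 were higher and 0 lower at an unadjusted p under 0.05, where 3.92% of all genes were higher, with a list median of 0.12. DDX58, encoding the RNA sensor RIG-I, was at 83.8, 22.0, 16.6, 16.9 and 22.7 CPM against 11.8, 13.4, 9.18, 8.98 and 6.27 CPM. The DDX58 groups did not overlap, and the log2 fold change was 1.71 ± 0.48 (SE, adjusted p = 0.453 by edgeR) and 0.85 without both extreme tumors. ZBP1, a sensor of Z-form nucleic acids, was at 29.9, 1.42, 1.38, 4.19 and 1.06 CPM against 0.937, 1.01, 0.589, 0.202 and 0.600 CPM. The ZBP1 groups were separated by a narrow margin, between boxer 4 and French bulldog 9, with French bulldogs 11 and 1 further above. Its log2 fold change was 3.48 ± 1.02 (SE, adjusted p = 0.482 by edgeR) and 1.54 without both extreme tumors. TLR7, an endosomal sensor of single-stranded RNA, was at 3.22 to 7.49 CPM against 0.750 to 3.41 CPM, with a log2 fold change of 1.72 (adjusted p = 0.462 by edgeR). CGAS, the sensor of cytosolic DNA, had a log2 fold change of 1.68 (adjusted p = 0.783 by edgeR) at levels of 0 to 4.70 CPM, and 1.12 without French bulldog 11. The adaptors MAVS and TBK1 had values of 0.12 and 0.067 on the log2 scale (unadjusted p = 0.58 and 0.66).

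Transcripts of the interferons themselves were scarcely counted. Of 10 ligand symbols 5 were listed and 0 passed the filter on low counts, and IFNB1 and IFNA7 had 0 counts in all 16 tumors, where 3 counts were taken as the smallest level the depth could show. IFNG had 32 counts in all 16 tumors, of which 19 were in boxer 1, an interferon-low tumor, and 2 in Boston terrier 7, the 1 interferon-high tumor with any. Interferon transcripts below this depth could not be detected.

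Few signalling genes had small p-values. Of 5 tested receptors and kinases, 1 was higher at an unadjusted p under 0.05, where 3.92% of all genes were. It was IFNGR1, a chain of the IFN-gamma receptor, with a log2 fold change of 0.55 (adjusted p = 0.637 by edgeR). JAK1 and TYK2 had log2 fold changes of 0.24 and -0.093. Of 10 transcription factors 1 was higher at an unadjusted p under 0.05, against the same 3.92% of all genes. It was STAT3, with a log2 fold change of 0.47 (adjusted p = 0.715 by edgeR). IRF1, an early interferon-induced factor, was at 37.9, 11.4, 7.17, 12.1 and 7.01 CPM against 12.2, 2.79, 10.2, 4.64 and 3.33 CPM. The groups overlapped for IRF1, whose log2 fold change was 1.19 (adjusted p = 0.800 by edgeR) and 0.34 without both extreme tumors. STAT2, IRF7, IRF9, IFNAR1, IFNAR2, USP18, IFIH1 and STING1 were not listed by symbol and were not analysed here.

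Among 11 negative regulators, 1 was higher and 1 lower at an unadjusted p under 0.05, against 3.92% and 2.4% of all genes. SOCS3, which blocks cytokine receptor signalling, was at 14.4 CPM in French bulldog 11 and 0.0960 to 1.93 CPM in the other interferon-high tumors, against 0.469 to 1.18 CPM in the interferon-low tumors. SOCS2 was at 142 CPM in French bulldog 4, and the other 9 tumors ranged from 5.66 to 15.5 CPM. SOCS1 had 139 counts in all 16 tumors and was below the filter. The log2 fold change of SOCS3 went from 2.19 to 0.35 without French bulldog 11, and that of SOCS2 from -1.83 to -0.20 without French bulldog 4.

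Genes typical of IFN-gamma were represented by 9 tested genes, with a list median of 0.71, and 0.21 without both extreme tumors. At an unadjusted p under 0.05, 1 of the 9 was higher, where 3.92% of all genes were. This gene was CIITA, the master activator of MHC class II, at 9.19, 4.0, 2.85, 5.24 and 4.61 CPM against 1.22, 1.78, 1.85, 0.908 and 0.382 CPM. The CIITA groups did not overlap, and the log2 fold change was 2.07 ± 0.49 (SE, adjusted p = 0.359 by edgeR and 0.00720 by DESeq2). CXCL10, a chemokine that attracts T cells, was below the filter, at 14.1 CPM in French bulldog 11 and 0.288 to 1.25 CPM in the other interferon-high tumors, against 0 to 0.202 CPM in the interferon-low tumors. CD274, encoding PD-L1, had a log2 fold change of 0.38 (unadjusted p = 0.19), and 0.23 without French bulldog 2+8 and 0.58 without boxer 1.

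MHC class I and immunoproteasome genes, which make and load peptides for CD8 T cells, overlapped between the groups in all 17 tested genes. At an unadjusted p under 0.05, 4 were higher and 1 lower, against 3.92% and 2.4% of all genes, with a list median of 0.57. Without both extreme tumors 0 of the 17 were higher at an unadjusted p under 0.05, with a median of 0.29. B2M, the light chain of class I, was at 586, 134, 104, 249 and 160 CPM against 83.7, 92.7, 179, 79.3 and 35.3 CPM. Boston terrier 6, an interferon-low tumor, exceeded 3 of the interferon-high tumors for B2M, and the log2 fold change was 1.39 ± 0.53 (SE, adjusted p = 0.687 by edgeR), 0.78 without French bulldog 11 and 0.57 without both extreme tumors. The heavy chain genes DLA88 and DLA-79 had log2 fold changes of 1.66 and -1.12 (adjusted p = 0.742 and 0.705 by edgeR). Reads can be shared between similar class I genes, which was not tested here, so these values are uncertain. PSMB8, an immunoproteasome subunit, had a log2 fold change of 1.27 (unadjusted p = 0.052) and 0.64 without both extreme tumors. NLRC5, the class I activator, and TAP1, the peptide transporter, had log2 fold changes of 0.57 and 0.21 (adjusted p = 0.907 and 0.925 by edgeR), and that of NLRC5 was -0.13 without both extreme tumors.

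MHC class II genes, used by macrophages and other antigen-presenting cells, had higher levels in part. Of 10 tested genes, 5 were higher and 0 lower at an unadjusted p under 0.05, and 4 did not overlap between groups, against 3.92% and 1.21% of all genes. CD74, the invariant chain, was at 270, 118, 71.6, 207 and 130 CPM against 31.2, 65.3, 48.2, 36.6 and 24.6 CPM. The CD74 groups did not overlap, and the log2 fold change was 1.95 ± 0.39 (SE, adjusted p = 0.220 by edgeR and 0.00180 by DESeq2). DLA-DRA, the class II alpha chain, was at 116, 39.3, 22.3, 96.7 and 51.3 CPM against 13.7, 21.9, 22.2, 9.79 and 10.8 CPM, with a log2 fold change of 2.05 ± 0.45 (SE, adjusted p = 0.288 by edgeR). The list median was 0.72, and 0.78 without both extreme tumors. French bulldog 11 was the highest of the 16 tumors for 6 of the 10 genes, against 12.4% of all genes.

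Myeloid markers had higher levels in the same tumors. All 20 tested genes had a log2 fold change above 0, 15 were higher and 0 lower at an unadjusted p under 0.05, 7 did not overlap between groups and DESeq2 called 7. Over all genes these shares were 3.92% higher, 1.21% not overlapping and 0.674% called higher by DESeq2, and 42.6% had a value above 0. Their summed level ranged from 271 to 642 CPM in the interferon-high tumors and from 109 to 325 CPM in the interferon-low tumors. AIF1, or IBA1, of microglia and macrophages, was at 11.8, 6.42, 5.89, 9.36 and 6.24 CPM against 1.78, 4.19, 1.85, 2.12 and 2.56 CPM. The AIF1 groups did not overlap, and the log2 fold change was 1.66 ± 0.36 (SE, adjusted p = 0.284 by edgeR and 0.00278 by DESeq2). MSR1, a scavenger receptor of macrophages, was at 37.6, 20.02, 11.8, 35.4 and 15.1 CPM against 6.0, 9.62, 5.05, 6.86 and 4.31 CPM, also without overlap, with a log2 fold change of 1.91 ± 0.38 (SE, adjusted p = 0.220 by edgeR). CD68, a lysosomal protein of phagocytes, ranged from 4.70 to 14.2 CPM against 2.25 to 3.82 CPM, with a log2 fold change of 1.34 (adjusted p = 0.403 by edgeR). CD163, a haemoglobin scavenger receptor, ranged from 8.83 to 39.0 CPM against 2.67 to 8.46 CPM, with a log2 fold change of 1.75 (adjusted p = 0.405 by edgeR).

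The myeloid median was 1.18, and 0.97 without both extreme tumors, when the interferon-stimulated median had gone from 0.95 to 0.40. P2RY12 and TMEM119, more particular to microglia, had log2 fold changes of 0.33 and 1.15 (unadjusted p = 0.51 and 0.15). With the myeloid markers as a covariate, 44 of the 55 interferon-stimulated genes were above 0, with a median of 0.46 and 0 genes called by edgeR. Several genes of the interferon lists, such as SIGLEC1 and LGALS9, are also expressed by macrophages. In bulk tissue more cells of a type and more RNA per cell cannot be told apart, and the part of myeloid cells in the interferon values beyond this fit was not tested.

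Most T and NK cell markers had few counts. Of 24 listed T and NK cell markers 3 passed the filter, and 0 were higher or lower at an unadjusted p under 0.05. CD3E had 35 counts and CD8A 10 counts over all 16 tumors, and the summed T and NK level overlapped, at 6.53 to 23.2 CPM against 4.5 to 49.7 CPM. CD4, which myeloid cells of dogs can also express, had 537 counts in Boston terrier 6 and 4 to 146 in the other tumors, and CD2 had 3 to 110 counts. Of 11 listed B and plasma cell markers 3 were tested and 1 was lower at an unadjusted p under 0.05, where 2.4% of all genes were lower. It was JCHAIN, with a log2 fold change of -0.75. CD79A, of the B cell receptor, and JCHAIN, which joins secreted antibodies, were counted in every tumor, at 520 to 1903 and 258 to 1305 counts, and MS4A1, encoding CD20, had 43 counts over all tumors. Of 5 tested neutrophil markers 1 was lower at an unadjusted p under 0.05, MPO, with a log2 fold change of -1.71, against the same 2.4% of all genes. Of 2 tested dendritic cell markers, FLT3 and CD209, 0 were higher or lower at that threshold. XCR1, of cross-presenting dendritic cells, was below edgeR's filter and had 36, 0, 11, 11 and 47 counts in the interferon-high tumors and 0, 0, 0, 3 and 0 counts in the interferon-low tumors. DESeq2 called it higher (adjusted p = 0.0473), although Boston terrier 7 had no count.

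Genes of inflammation and complement held no member with an adjusted p under 0.05 by edgeR. Of 15 inflammatory and NF-kB genes, 5 were higher at an unadjusted p under 0.05, where 3.92% of all genes were, with a median of 0.77. Without both extreme tumors 1 of the 15 was higher and 9 had a value above 0, with a median of 0.19. IL18, a cytokine of macrophages, did not overlap, at 4.92 to 11.5 CPM against 2.45 to 4.81 CPM, with a log2 fold change of 1.15 (adjusted p = 0.510 by edgeR). IL6 had 23 counts over all tumors. Of 11 complement genes, all had a log2 fold change above 0 and 3 were higher at an unadjusted p under 0.05. Over all genes these shares were 42.6% and 3.92%. The complement median was 0.87, and 0.43 without both extreme tumors. DESeq2 called 1 of the complement genes higher, C3AR1 (adjusted p = 0.0436 by DESeq2). C3, the central complement protein, was at 293, 217, 194, 157 and 184 CPM against 29.7, 200, 34.9, 52.8 and 20.8 CPM, and French bulldog 9 was the interferon-low tumor inside the interferon-high range. The log2 fold change of C3 was 1.63 (adjusted p = 0.621 by edgeR) and 2.60 without French bulldog 9. Against the same 3.92% of all genes, 1 of 7 tested checkpoint genes was higher at an unadjusted p under 0.05, CD86, with a log2 fold change of 1.36. Of 14 cell death genes 1 was, CASP8, with 1.11.

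**Figure D4:**
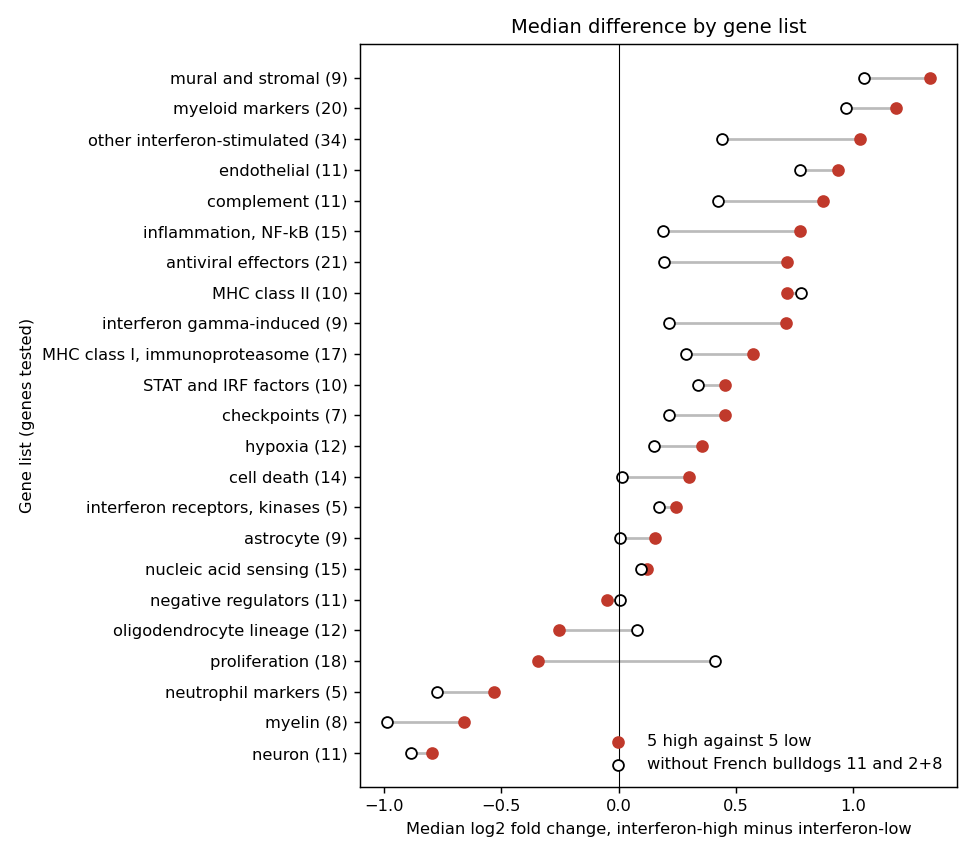
Median log2 fold change (interferon-high minus interferon-low) of each gene list with at least 5 tested genes, in all 10 tumors (red) and without French bulldogs 11 and 2+8 (open circles), with the number of tested genes in brackets. The mural and stromal (1.33 and 1.05), myeloid (1.18 and 0.97) and endothelial (0.94 and 0.77) medians moved little, and those of the antiviral effectors went from 0.72 to 0.19.

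Matrix and vessel genes, which no part of the score used, also had higher levels in many members. All 9 tested mural and stromal genes had a log2 fold change above 0, 5 were higher at an unadjusted p under 0.05, and those 5 did not overlap between groups, where 3.92% of all genes were higher, 1.21% did not overlap and 42.6% had a value above 0. COL1A1, the main fibrillar collagen chain, was at 299, 55.8, 46.3, 75.7 and 51.4 CPM against 14.8, 9.31, 6.15, 21.0 and 4.80 CPM. Every interferon-high tumor was above every interferon-low tumor, with a log2 fold change of 3.24 ± 0.65 (SE, adjusted p = 0.220 by edgeR). COL3A1, its partner in vessel walls, was at 153, 74.5, 66.6, 117 and 51.4 CPM against 18.6, 17.6, 19.7, 24.8 and 7.14 CPM, with a log2 fold change of 2.40 ± 0.38 (SE, adjusted p = 0.199 by edgeR and 1.00e-05 by DESeq2). FN1, or fibronectin, was at 287, 384, 542, 326 and 239 CPM against 161, 112, 149, 162 and 153 CPM. FN1 was not led by French bulldog 11, and its log2 fold change was 1.27 ± 0.24 (SE, adjusted p = 0.210 by edgeR) and 1.35 without both extreme tumors.

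All 11 tested endothelial genes had a log2 fold change above 0, 8 were higher at an unadjusted p under 0.05 and 3 did not overlap, against the same shares of all genes. French bulldog 11 was the highest of 16 tumors for 0 of the 11, against 12.4% of all genes. PECAM1, the junction protein CD31, was at 59.4, 68.2, 99.5, 65.8 and 41.7 CPM against 25.2, 24.1, 38.2, 36.0 and 18.9 CPM. The PECAM1 groups did not overlap, with a log2 fold change of 1.23 ± 0.27 (SE, adjusted p = 0.284 by edgeR and 0.00924 by DESeq2). TIE1, an endothelial receptor kinase, was at 12.8 to 21.3 CPM against 6.27 to 11.3 CPM, with a log2 fold change of 1.06 (adjusted p = 0.343 by edgeR). The tumors between the groups spanned wider ranges, 15.3 to 130 CPM for PECAM1 and 4.60 to 41.2 CPM for TIE1, so these levels did not follow the score through the middle of its range. The summed endothelial level was 486 to 711 CPM in interferon-high, 207 to 424 CPM in interferon-low and 279 to 1130 CPM in the other tumors, and the part of vessel and stromal content in the interferon values was not tested.

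The genes with a symbol and in no list that had the smallest p-values included further genes of matrix and vessels. ANO1, a calcium-activated chloride channel, was at 20.2, 25.1, 18.4, 23.1 and 24.4 CPM against 3.28, 5.51, 6.40, 7.47 and 5.72 CPM. The groups were well apart and each was even, with a log2 fold change of 1.97 ± 0.25 (SE, adjusted p = 0.103 by edgeR), yet the tumors between them ran from 2.48 to 44.6 CPM. CD34, of endothelial cells, was at 68.2, 45.9, 59.0, 56.0 and 46.6 CPM against 21.5, 25.8, 25.2, 26.7 and 21.9 CPM, with a log2 fold change of 1.19 (adjusted p = 0.189 by edgeR). The collagen genes COL12A1, COL4A2, COL6A3 and COL6A1 had log2 fold changes of 2.13, 1.71, 2.34 and 2.40. POSTN, a matrix protein, had 3.11, and IGFBP7, a secreted protein of tumor vessels, 1.32. ARHGDIB had 1.81 and MTFMT, a mitochondrial formyltransferase, 1.45. None of these genes overlapped between the groups, and apart from ANO1 their adjusted p-values by edgeR were 0.189 to 0.199.

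On the lower side, KLF15, a transcription factor induced by glucocorticoids, was at 8.49, 14, 20.1, 14.9 and 16.7 CPM in the interferon-high and at 41.8, 35.9, 35.4, 49.1 and 30.4 CPM in the interferon-low tumors. The groups did not overlap, and the log2 fold change was -1.37 ± 0.24 (SE, adjusted p = 0.199 by edgeR and 0.000230 by DESeq2). ANO3, a membrane scramblase of neurons, was at 9.49, 14.2, 26.0, 12.5 and 21.3 CPM against 82.7, 34.6, 51.0, 51.8 and 40.2 CPM, with a log2 fold change of -1.64 ± 0.33 (SE, adjusted p = 0.220 by edgeR). The other genes of this group, ADAMTS10, MBOAT1, RIOK1, LRP3, EXOC2, ZBTB16, ARHGEF10L and RB1CC1, had log2 fold changes from -1.48 to -0.51.

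**Figure D5:**
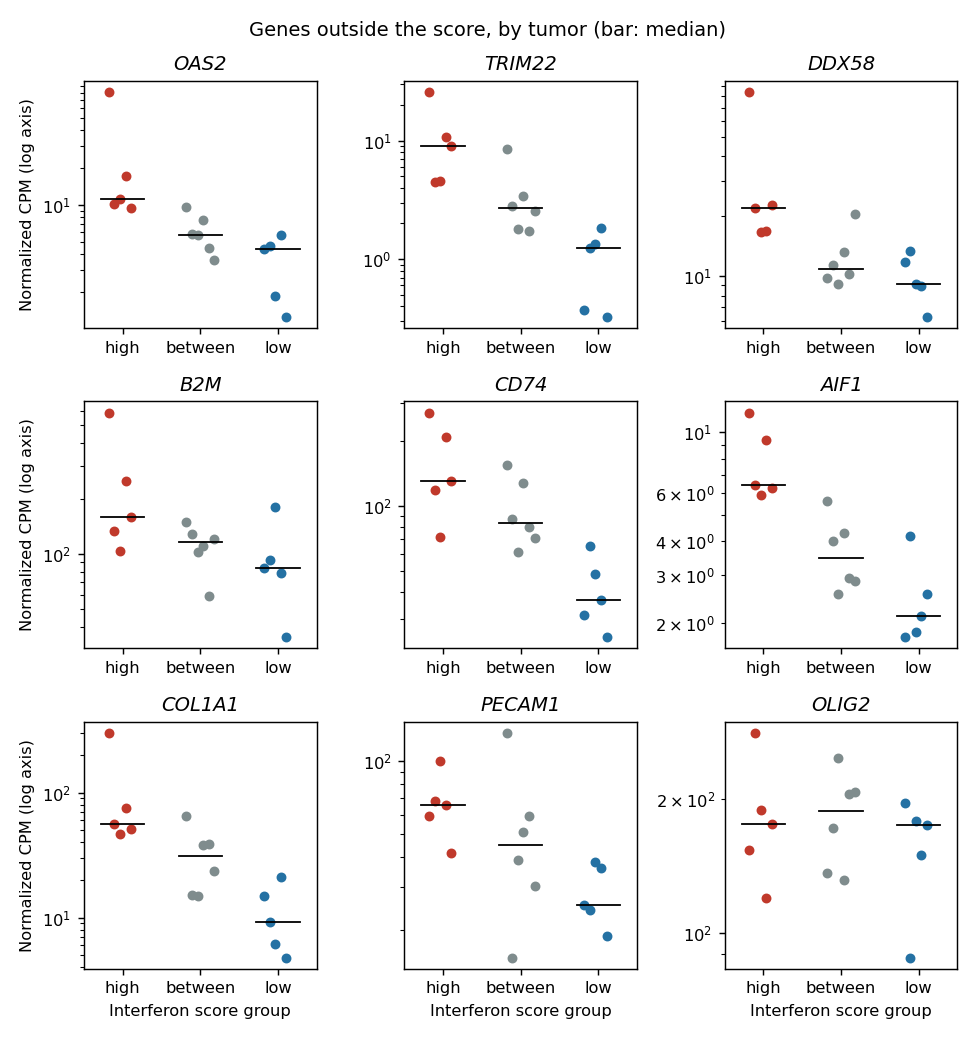
Normalized CPM (log axis) of 9 genes outside the score in the interferon-high (red), between (grey) and interferon-low (blue) tumors, with 1 point per tumor and a bar at the median. OAS2, TRIM22, DDX58, CD74, AIF1, COL1A1 and PECAM1 do not overlap between high and low, B2M and OLIG2 do, and for PECAM1 the tumors between (15.3 to 130 CPM) span the whole range.

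Tumor cell and neural genes mostly overlapped between the groups. Of 12 oligodendrocyte lineage genes 0 were higher or lower at an unadjusted p under 0.05. The list median was -0.25, and 0.081 without both extreme tumors. OLIG2, a factor of the oligodendrocyte lineage, was at 154, 281, 189, 120 and 176 CPM against 196, 88.2, 178, 150 and 175 CPM, with a log2 fold change of 0.22 (adjusted p = 0.907 by edgeR), and 0.017 without Boston terrier 7. SOX10 had a log2 fold change of -0.27 (adjusted p = 0.901 by edgeR), and -0.13 to -0.46 with 1 tumor left out. PDGFRA, a growth factor receptor of oligodendrocyte precursors, was at 208, 1689, 389, 272 and 765 CPM against 1741, 164, 1406, 552 and 5090 CPM. The PDGFRA ranges overlapped widely, with French bulldog 2+8 highest, and the log2 fold change was -1.43 ± 0.84 (SE, adjusted p = 0.842 by edgeR) and -0.31 without both extreme tumors.

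Of 18 proliferation genes 0 were higher or lower at an unadjusted p under 0.05, and the list median changed sign, from -0.34 in all tumors to 0.41 without both extreme tumors. MKI67, the marker of cycling cells, was at 699 CPM in French bulldog 2+8, at 22.4 to 235 CPM in the other interferon-low tumors and at 44.1 to 212 CPM in the interferon-high tumors. French bulldog 2+8 also had the lowest level of all 16 tumors for the 8 myelin genes, with MBP at 93.5 CPM against 4588 CPM in French bulldog 9. It was the lowest tumor for 15.2% of all genes tested. The lists of 11 neuron genes and 8 myelin genes had medians of -0.80 and -0.66, with 0 genes at an unadjusted p under 0.05 in either. The summed neuron level ran from 88.9 to 1617 CPM in interferon-high and from 95.6 to 1973 CPM in interferon-low tumors, with medians of 105 and 763 CPM. The ranges overlapped, and 0 of the 11 neuron genes and 1 of the 8 myelin genes had a log2 fold change above 0, against 42.6% of all genes. The part of brain tissue content in the comparison was not tested. GFAP, of astrocytes, had a log2 fold change of 0.59 (adjusted p = 0.910 by edgeR), which was 0.32 to 1.49 with 1 tumor left out, the highest without French bulldog 9. Of 12 hypoxia genes 1 was higher at an unadjusted p under 0.05, CA9, with 1.39, where 3.92% of all genes were. VEGFA had 0.92 (adjusted p = 0.849 by edgeR), which was 0.52 without Boston terrier 7 and 1.48 without Boston terrier 6. CHI3L1, of reactive astrocytes and macrophages, was at 6.59 to 13.4 CPM against 0.436 to 6.05 CPM, without overlap and with a log2 fold change of 2.07 (adjusted p = 0.462 by edgeR). It was the 1 of 9 tested astrocyte genes that was higher at an unadjusted p under 0.05, where 3.92% of all genes were. Of the 9 astrocyte genes 7 had a value above 0, with a median of 0.16, and 0.0042 without both extreme tumors.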

How the data were processed

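The authors trimmed paired-end reads with Trimmomatic 0.33, mapped them to the dog genome (canFam6) with HISAT2 2.1.0 and counted them per gene with featureCounts. The strand and multi-mapping settings are not given in the sources used here. They deposited raw counts for 29993 genes, 16324 of them with a symbol, without normalization, and all values here were computed from those counts. Log2 CPM for the score used TMM scaling and a prior count of 2, and CPM of single tumors are TMM-scaled with no prior. Groups were compared with edgeR 4.0.16 (R 4.3.3), quasi-likelihood F test, filterByExpr, dispersions estimated robustly and no covariate, and two-sided p-values were adjusted by Benjamini-Hochberg over all genes tested, after the score genes were left out. The SE was taken as the absolute log2 fold change over the root of its F statistic. DESeq2 1.42.0, the authors' tool, limma-voom (limma 3.58.1), other normalizations, filters, group sizes, covariates and score definitions, each tumor left out in turn and a block for the dogs' numbers were alternatives. The fits without both extreme tumors and in boxers and Boston terriers alone were added after the data were seen.

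The members, the gene lists and the tests were chosen with earlier results of these data known. The plan was to name the called members of each list by size, but edgeR called no member of any list. The genes named by rule were a fixed set of pathway and cell markers. To these came the 10 genes with a symbol, in no list, that had the smallest p in each direction. Others were chosen after their values were seen. A floor of 3 counts was used for detection and covers counting error only. Sequences are not printed here, and gene lengths were not used, so CPM are compared between tumors and not between genes. Figures were made with matplotlib 3.10.9.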

Additional observations from a re-analysis of the deposited data

Results flagged for a closer look

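In groups of 5 tumors, 1 tumor could be far from the other 4 by Dixon's 95% criterion, a ratio of gap to range above 0.710 on log2 CPM. This held in 14 of 170 groups examined over 85 named genes, with 5 in French bulldog 11 and 4 in French bulldog 2+8. About 1 in 20 is flagged by chance in unselected data. That rate does not apply here, since the tumors and many of the genes were chosen by their values. French bulldog 11 was far above the other interferon-high tumors for DDX58 (83.8 CPM), IFI35 (14.1 CPM), COL1A1 (299 CPM), OAS2 (80.8 CPM) and ICAM1 (29.9 CPM). French bulldog 2+8 was far from the other interferon-low tumors for LRP3 (39.5 CPM, high) and for COL6A1 (3.87 CPM), COL6A3 (2.56 CPM) and COL3A1 (7.14 CPM, all low). French bulldog 9 was far from the other interferon-low tumors for SOX10 (154 CPM), ZBTB16 (107 CPM) and FN1 (112 CPM). ARHGEF10L in boxer 3 (35.8 CPM) and CGAS in Boston terrier 6 (0 CPM) were the remaining cases.

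French bulldog 6, which is in neither group, had MX2 at 371 CPM (3563 counts) and CXCL10 at 419 CPM (4028 counts), while the 16 tumors reached 441 CPM for MX2 and 14.1 CPM for CXCL10. Its OLIG2 count was 0.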

How the results depend on the processing

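In edgeR, 0 genes were called in either direction in all 10 fits with 1 tumor left out (range 0 to 0, also for the other interferon-stimulated genes). DESeq2 called 138 higher and 14 lower, 6 of them interferon-stimulated. The 6 highest against the 6 lowest tumors gave 15 higher, and the score as a covariate gave 274 higher and 69 lower, with 25 interferon-stimulated genes higher. The score without MX2 and the score without IFIT3 each gave 5 higher (IGFBP7, PDGFB, ANO1, COL4A2 and COL3A1), with French bulldogs 3 and 10 in place of 2 tumors. The other alternatives called 0 genes. With French bulldog 6 kept the interferon-stimulated median was 1.44. The log2 fold change of MKI67 was 0.0078 with limma-voom and 0.64 without both extreme tumors, where NLRC5 was -0.13 and OAS3 -0.064. With 1 tumor left out, TAP1 ranged from -0.073 (without French bulldog 11) to 0.36 and MKI67 from -1.15 to 0.43 (without French bulldog 2+8). The cause was not tested. A replicate block over the 2 dog numbers that both groups hold called 0 genes. In it 35 of 55 interferon-stimulated genes were above 0, with a median log2 fold change of 0.20. That fit held only French bulldog 1, boxer 4, boxer 1 and French bulldog 4. Both extreme tumors were absent, so the effect of the block and that of the tumors left out cannot be told apart. Correlations of deviations within the pairs were -0.0056 and -0.15, and 2 pairs cannot show what the numbers mean. In the labels the numbers tell dogs apart. Calls with 5 tumors a group depended on the tool, and the score thresholds fall within a continuous run of tumors.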

Other observations

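The libraries of French bulldogs 2 and 8, summed for the comparison, were close for some genes when taken singly and further apart for others at few counts. MX2 was at 16.1 and 16.9 CPM, IFI44 at 5.12 and 5.08 CPM, COL1A1 at 5.57 and 3.86 CPM and OLIG2 at 181 and 160 CPM. RSAD2 was at 1.34 and 3.25 CPM (12 and 32 counts) and ISG15 at 0.223 and 0.508 CPM (2 and 5 counts).

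French bulldog 6 had the second highest score of 17 tumors when it was kept (1.25). Some of its interferon-stimulated genes were near the levels of French bulldog 11. IFIT1 was at 74.1 CPM in French bulldog 6 against 66.9 CPM in French bulldog 11, DDX58 at 82.4 against 83.8 CPM, and OAS2 at 112 against 80.8 CPM. ISG15 was at 1.35 CPM and RSAD2 at 4.37 CPM in French bulldog 6, against 32.7 and 91.2 CPM in French bulldog 11. Of genes outside those lists, B2M was at 2026 CPM, CD74 at 3404 CPM and CD163 at 2897 CPM in French bulldog 6, against 586, 270 and 30.0 CPM in French bulldog 11.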
